A study of Homo sapiens with 3 samples.

Results

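The transcripts described here carry the biotype "retained intron" in GENCODE 29, meaning that they share exons with other transcripts of a gene but read through sequence that those transcripts splice out. Members were all such transcripts with a mean of at least 10 estimated counts over the 3 deposited libraries, which gave 3021 of 26267 retained-intron transcripts, among 196354 transcripts in each table. RNA was captured from lysate of J82 cells, an established human bladder cancer line, and sequenced after pull-down with 1 of 3 proteins. The first was glutathione S-transferase (GST) alone, which serves as the background of the capture. The second was GST fused to wild-type ZFP36L1, and the third was a GST fusion of its Ala mutant, whose replaced residues the labels do not name. Each protein has 1 library, so no difference can be set against replicates, no p-value is given, and every interval is a 95% interval of counting error only. Members were chosen by their measured mean count, so their levels are given as a description.

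Introns are removed from a pre-mRNA by the spliceosome, which reads GU at the start and AG at the end of the intron. A transcript that keeps an intron is often held in the nucleus or degraded, and genes of splicing factors are known for tuning their own expression in this way. ZFP36L1 is a zinc finger protein that binds AU-rich sequence, with UAUUUAU as its core site, mostly in the 3' UTR of mRNAs, and recruits the decay machinery.

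Of the 3021 members, 1189 held at least 1 whole intron of a protein-coding transcript of their gene, and 1614 held part of an intron. Another 145 held fewer than 31 bases that are intronic to the protein-coding transcripts, and 73 lay in genes without an annotated protein-coding transcript. Whole introns of the main protein-coding transcript, the one with the highest mean TPM, were held by 914 members, most often internal ones and for 202 members the last one. These introns numbered 1271, with a median length of 233 bases (quartiles 114 and 598), and 1250 of them (98.3%) began with GT and ended with AG. The sequences of 4 such introns follow, 5' to 3' as DNA in GRCh38, to show what separates a member from the spliced mRNA; capitals mark the first 6 and the last 4 bases, the splice signals that stayed in the RNA. EEF1A1-207 and RPS18-237 were among the most abundant members, and CSNK2B-206 and SELENOH-205 stood higher relative to the spliced mRNA with wild-type ZFP36L1 than with GST.
EEF1A1-207, intron 6 of 7 of EEF1A1-203, chr6:73518265-73518353, minus strand: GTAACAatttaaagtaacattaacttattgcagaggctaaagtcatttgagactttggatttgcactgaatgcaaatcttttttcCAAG
RPS18-237, intron 5 of 5 of RPS18-233, chr6:33276268-33276390, plus strand: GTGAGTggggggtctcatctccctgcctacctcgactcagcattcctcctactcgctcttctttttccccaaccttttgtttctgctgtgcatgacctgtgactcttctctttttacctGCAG
CSNK2B-206, intron 5 of 6 of CSNK2B-201, chr6:31669173-31669318, plus strand: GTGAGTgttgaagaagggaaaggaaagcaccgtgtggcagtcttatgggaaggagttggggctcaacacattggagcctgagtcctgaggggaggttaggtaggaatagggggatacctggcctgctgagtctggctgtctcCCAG
SELENOH-205, intron 1 of 3 of SELENOH-202, chr11:57741718-57741808, plus strand: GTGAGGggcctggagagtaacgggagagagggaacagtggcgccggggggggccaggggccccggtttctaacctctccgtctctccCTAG

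The core site UAUUUAU, written TATTTAT in the DNA sequence, was searched on the transcript strand only. It was found in 624 members (20.7%), against 26.5% of all transcripts with a mean of at least 10 counts. By length, the share was 5.95% of members and 5.88% of all transcripts of 244 to 707 bases, 10.6% and 11.05% at 708 to 1508 bases and 22.9% of both at 1509 to 2658 bases. In the longest group, 2660 to 18335 bases, it was 43.2% of members against 49.98% of all transcripts, with median lengths of 3693 and 4130 bases. In 317 members the site lay in intronic bases. The intronic sites of 7 members with high counts are shown with their neighbours, 5' to 3' as DNA in GRCh38, with the site in capitals. They were chosen after their values were seen and include members higher, lower and little different with wild-type ZFP36L1.
SPTBN1-204, chr2:54664173-54664201, plus strand: gatctgagttaTATTTATtgatcagagga
ATP2A2-202, chr12:110348155-110348183, plus strand: acattgctactTATTTATtaaaaagctaa
TUBGCP4-207, chr15:43403064-43403092, plus strand: tcatcattaaaTATTTATtgagtgcttac
CLTC-209, chr17:59689245-59689273, plus strand: gattagactcaTATTTATggtatttaata
GPI-204, chr19:34393429-34393457, plus strand: gctggctgggaTATTTATttcatgtccag
ITGA3-208, chr17:50086718-50086746, plus strand, 1 of 2 sites: acacacatccgTATTTATctccattgtag
HBS1L-210, chr6:134982801-134982829, minus strand: ctggtactacgTATTTATtatttctcaat

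Estimated counts summed to 19137867 in the GST library, 19845386 in that of the wild type and 19153483 in that of the mutant. The name of the GST file carries another run code than the files of the fusion proteins, so run and GST background cannot be told apart. Members took 5.54% (exact interval 5.53% to 5.55%), 5.28% (5.27% to 5.29%) and 6.01% (5.9995% to 6.0208%) of the counts of GST, wild type and mutant. Of the 10 epithelial marker genes, KRT7, KRT8 and KRT18 carried nearly all counts, and the sum was 17730, 1356 and 29787 in the same order. KRT19 and UPK3A, a urothelial marker, were at 0, and GATA3 had 1 to 2 counts. Mesenchymal markers summed to 42742, 5095 and 29753, while the 4 leukocyte markers summed to 1, 7 and 11. Both the epithelial and the mesenchymal sums were lowest with wild-type ZFP36L1, the latter through VIM at 41484, 2581 and 29118. FN1 (573, 1403 and 263), ZEB1 (499, 960 and 263) and EPCAM (11, 55 and 3) were highest there instead. The part of these genes in the results was not tested.

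The 3021 members lay in 2338 genes. In 1822 genes there was 1 member, and in 516 there were more, with the most, 8, in GAS5. The median member was 1508 bases long with 3 exons. Just below the threshold stood C16orf91-202 (mean 9.98) and TXNDC17-206 (9.99), and just above it PRELID2-203 (10, with 4, 15 and 11 counts) and GCLC-212 (10.02). Sequence of its own tells a member from every other transcript. A member without it can still hold sequence absent from the protein-coding transcripts, a share that is not given here. The median share of 31-base words found in no other matched transcript was 21.5%, with 1576 members at 20% or more and 493 at 0. Reads in shared sequence were divided between transcripts by the authors' software, and the error of that division is not part of the intervals.

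The median member had 47.5 estimated counts with GST, 23.1 with wild-type ZFP36L1 and 55.6 with the Ala mutant. At least 10 counts were reached by 2639, 2023 and 2698 members in the same order, and by 1655 in all 3 libraries. Wild type also had the most members that rounded to 0, with 455 against 151 for GST and 111 for the mutant. At least 10 counts in 1 library alone were found for 85 members with GST, 81 with wild type and 171 with the mutant. Such members passed the minimum mean in part through that library. These numbers were not set against those of all transcripts and are given as a description.

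The comparison of each fusion with GST asked which RNAs were recovered beyond the background of the capture, and the comparison of the fusions how the mutation altered recovery. As levels, most members were lower with wild-type ZFP36L1 than with GST. A call, in either direction, required a 2-fold difference of scaled counts and an interval without a ratio of 1. By this rule 1466 members (48.5%) were lower and 549 (18.2%) higher, against 42.9% lower and 23.4% higher of the 27464 transcripts of any type. The median log2 ratio of level was -1.04 for members and -0.51 for all transcripts. Between the Ala mutant and GST the median was 0.29, with 699 members (23.1%) higher and 321 (10.6%) lower, against 19.8% and 12.8% of all transcripts. Between wild type and mutant 534 members (17.7%) were higher and 1598 (52.9%) lower, against 26.2% and 46% of all transcripts, with a median of -1.36 against -0.68. Both comparisons with wild type share the wild-type library, and the difference of these shares from those of all transcripts was not tested. Other ways of scaling moved the median of all transcripts by up to 0.11 between wild type and GST, by up to 0.22 downward between mutant and GST and by up to 0.33 between wild type and mutant. Ratios within a gene, which follow, do not depend on scaling.

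To ask how members changed relative to the spliced mRNA, a ratio was used, which alone does not tell which side moved. For it, each member was set against the summed protein-coding transcripts of its gene. This was possible for 2626 members in 1999 genes where that sum had a mean of at least 10 counts. A further 319 members fell below that sum and 76 had no protein-coding transcript in the tables. The protein-coding sums of these genes had a median log2 ratio of -1.82 between wild type and GST, and their members one of -1.20. Relative to the spliced mRNA, therefore, more members were higher than lower with wild-type ZFP36L1, with a median log2 difference of 0.40 (quartiles -1.32 and 1.98). The difference was at least 2-fold upward for 887 members (33.8%) and downward for 586 (22.3%). Over all 6139 non-protein-coding transcripts tested in the same way, 31.6% were higher and 24.9% lower, with a median of 0.26, so the members stood close to this background. Transcripts annotated for nonsense-mediated decay had 28.5% higher and 28.1% lower, with a median of 0.07. Without the members, non-protein-coding transcripts had 30% higher and 26.9% lower, and processed transcripts 31.1% and 26.1%. A protein-coding transcript set against the other protein-coding transcripts of its gene was higher in 27.9% and lower in 31.8% of 11663 cases.

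Between the Ala mutant and GST the ratio of members to spliced mRNA differed less. The median was 0.11 (quartiles -0.80 and 1.07), with 658 members (25.1%) higher and 517 (19.7%) lower, against 26.1% and 19% of all non-protein-coding transcripts. The other classes stood near these shares, with 26.8% and 18.5% without the members, 28.3% and 20.8% for nonsense-mediated decay, 25.6% and 16.9% for processed transcripts and 24.4% and 24.2% between protein-coding transcripts. Between wild type and mutant the median was 0.20, with 844 members (32.1%) higher and 676 (25.7%) lower, against 30.4% and 29.4%. Here the shares were 29.2% and 32.2% without the members, 28.4% and 33.3% for nonsense-mediated decay, 29.7% and 31.2% for processed transcripts and 29.1% and 32.8% between protein-coding transcripts. Without regard to sign, the median log2 difference was 1.70 between wild type and GST, 0.94 between mutant and GST and 1.82 between wild type and mutant. The 191 members with the highest mean counts gave 1.65, 0.60 and 1.40, so the difference in spread was also seen where counts were high. With zeros set at a floor of 3 counts per library, the median differences of all 2626 members were 0.46, 0.11 and 0.27.

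**Figure D1:**
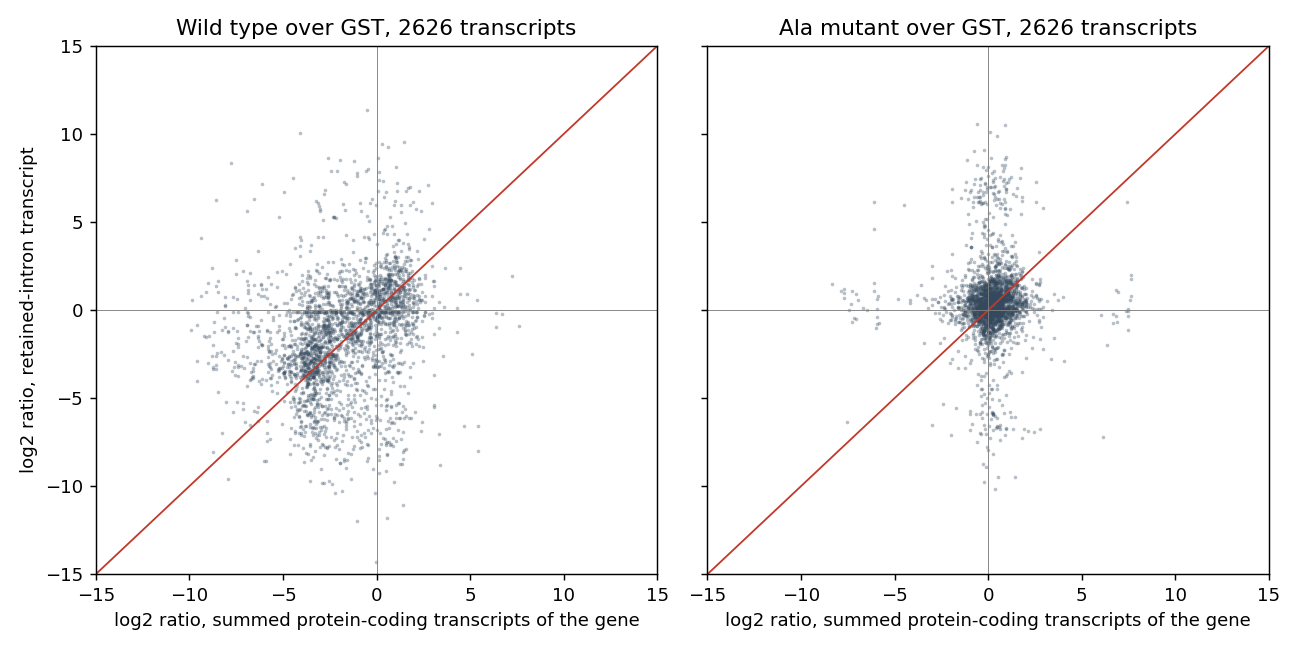
Log2 ratio of library-scaled estimated counts of each of 2626 members (vertical axis) against that of the summed protein-coding transcripts of its gene (horizontal axis), for wild-type ZFP36L1 over GST (left) and the Ala mutant over GST (right). The red line marks equal ratios; points spread along both axes on the left (Pearson's r 0.26 across members) and mostly in a cloud around 0 with vertical and horizontal arms on the right (r 0.02).

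**Figure D2:**
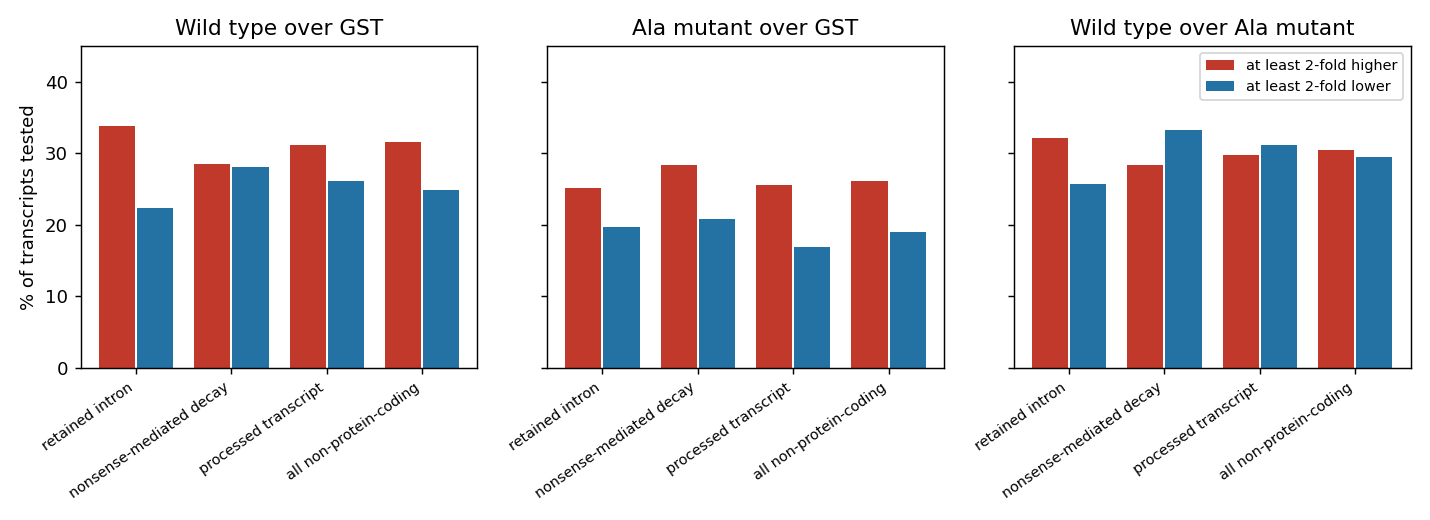
Percentage of transcripts whose ratio to the protein-coding transcripts of their gene was at least 2-fold higher (red) or lower (blue), by transcript type, in 3 comparisons of libraries. Retained-intron members stood at 33.8% higher and 22.3% lower between wild type and GST, and all non-protein-coding transcripts at 31.6% and 24.9%.

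Across the 2626 members, the log2 ratio of the member and that of its protein-coding sum went together only weakly, with Pearson's r of 0.26 between wild type and GST, 0.02 between mutant and GST and 0.34 between wild type and mutant. These are descriptions across transcripts that share libraries, and both values come from 1 division of reads within a gene. For the 681 members with a mean of at least 100 on both sides, r was 0.38, 0.09 and 0.46. Members above their protein-coding sum numbered 686 (26.1%) with GST, 853 (32.5%) with wild type and 746 (28.4%) with the mutant.

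Many of the largest differences had a count near 0 on one side, so members with solid counts everywhere were taken apart. At least 50 counts in every library, for the member and for the protein-coding sum, were found for 394 members of 371 genes. Of these, 135 (34.3%) were higher with wild type than with GST relative to the spliced mRNA and 58 (14.7%) lower, against 31.6% and 17.2% of the 1123 non-protein-coding transcripts with such counts. Between mutant and GST 58 (14.7%) were higher and 47 (11.9%) lower, against 13.6% and 11.8%. Between wild type and mutant 134 (34%) were higher and 72 (18.3%) lower, against 31.4% and 19.7%. Their medians were 0.48, 0.12 and 0.26 for wild type over GST, mutant over GST and wild type over mutant, close to 0.36, 0.11 and 0.24 for all non-protein-coding transcripts with such counts. From the 131 of them with at least 20% sequence of their own and no call between mutant and GST, the 8 highest and the 8 lowest with wild type were named, by the interval bound nearest to no change. This choice was made after the values were seen, and it fixes the direction with wild type and the small difference with the mutant.

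EIF3K-209 (chr19:38632026-38636924, plus strand) belongs to a gene of a subunit of the translation initiation factor eIF3. It had 83.3 estimated counts with GST, 164 with wild type and 84.0 with the mutant, while the protein-coding transcripts had 4462, 216 and 6312. The member was highest with wild type and the spliced mRNA lowest there, a difference of the ratio of log2 5.34 (4.91 to 5.80) against GST and -0.48 (-0.94 to -0.02) for the mutant. UQCC2-203 (chr6:33694293-33698657, minus strand), of a gene for an assembly factor of respiratory complex III, had 1505, 3080 and 1281 counts against 2919, 320 and 3619 for the spliced mRNA. Its ratio was higher with wild type by log2 4.22 (4.03 to 4.42). NMT1-211 (chr17:45104617-45105986, plus strand) had 287, 1857 and 334 counts, and its gene encodes the enzyme that attaches myristate to proteins. The spliced NMT1 mRNA had 1229, 466 and 1448 counts, giving a log2 difference of 4.09 (3.85 to 4.33). CCT2-211 (chr12:69599714-69601570, plus strand), of a gene for a subunit of the cytosolic chaperonin, had 1163, 5889 and 900 counts against 1114, 382 and 1052. It made up 51.1% (49.0% to 53.1%) of the sum of member and spliced mRNA with GST, 93.9% (93.3% to 94.5%) with wild type and 46.1% (43.9% to 48.3%) with the mutant.

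PHF10-204, of a chromatin remodelling gene, had 424, 2164 and 331 counts for GST, wild type and mutant. Its spliced mRNA had 331, 158 and 500, a log2 difference of 3.41 (3.10 to 3.74) with wild type over GST. This member held no base that lies in an intron of the protein-coding transcripts, although most of its 31-base words were its own. GRAMD1A-207, of a gene for a sterol transfer protein, differed by 3.63 (3.32 to 3.96), and MARK3-209, of a protein kinase gene, by 2.65 (2.30 to 3.02). ATP5MC3-205, of a gene for the c subunit of ATP synthase, kept the last of 4 introns of its main mRNA. It had 73.6, 236 and 111 counts against 3140, 1314 and 4137, a difference of 2.92 (2.53 to 3.34). All 8 members of this group had more counts with wild type than in either other library, and their spliced mRNAs had fewer.

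On the other side, CNOT1-204 (chr16:58520684-58533165, minus strand) had 938 counts with GST, 108 with wild type and 1060 with the mutant. CNOT1 is the scaffold of the CCR4-NOT deadenylase, which proteins of the ZFP36 family recruit to mRNAs. The spliced CNOT1 mRNA had 461, 875 and 562 counts, so the ratio was lower with wild type by a log2 difference of -4.04 (-4.39 to -3.71), and -0.11 (-0.33 to 0.11) with the mutant. PDIA3-206 (chr15:43770283-43771545, plus strand), of a gene for a disulfide isomerase of the endoplasmic reticulum, kept an internal intron and had 1018, 161 and 650 counts. Its spliced mRNA had 632, 566 and 469, a difference of -2.50 (-2.80 to -2.21). PRPF8-206, of the gene for a core protein of the spliceosome, differed by -2.08 (-2.43 to -1.75), with 283, 109 and 397 counts. MBOAT7-212, of an acyltransferase gene, differed by -2.88 (-3.43 to -2.36), but with all other transcripts of the gene as the reference its value was 0.05.

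In other members of this group the spliced mRNA carried the difference. ZNF532-220, of a zinc finger gene, had 82.4, 75.6 and 98.8 counts, while the spliced mRNA had 95.8, 789 and 86.3, a difference of -3.14 (-3.72 to -2.58). MYL12A-212, of a myosin light chain gene, had 128, 183 and 142 counts beside 18313, 98112 and 12220 for the spliced mRNA. TTC19-207, of a mitochondrial gene, had 66.0, 76.3 and 80.2 beside 162, 788 and 133. In these genes the counts of the member differed less between libraries than those of the spliced mRNA, which was highest with wild type.

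**Figure D3:**
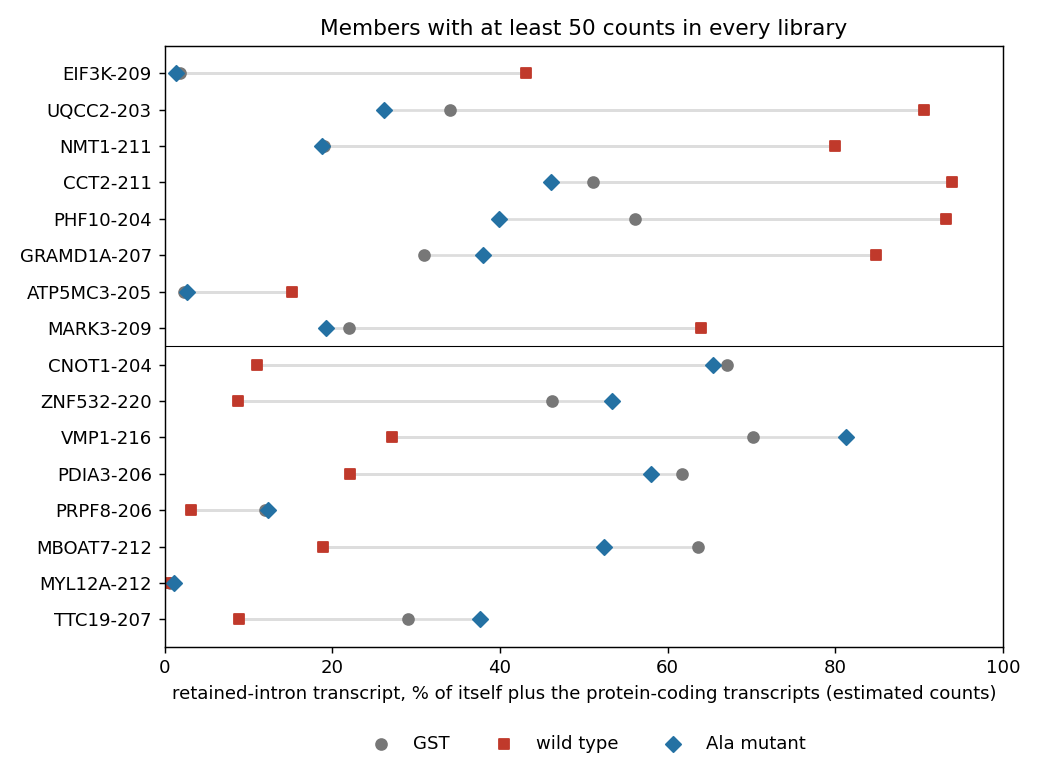
Share of the retained-intron transcript in the sum of itself and the protein-coding transcripts of its gene, in % of estimated counts, for 16 members chosen after the values were seen; circles are GST, squares wild-type ZFP36L1 and diamonds the Ala mutant. The line separates 8 members with the highest from 8 with the lowest ratio in wild type: CCT2-211 goes from 51.1% with GST to 93.9%, CNOT1-204 from 67.0% to 10.98%.

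VMP1-216 (chr17:59837931-59842255, plus strand) joins a retained intron to a microRNA. VMP1 encodes a membrane protein of autophagy, and the member kept the last of 11 introns of the main mRNA and contains the gene of MIR21, a microRNA that is abundant in many tumours. The mature strand is given from RefSeq, 5' to 3' as RNA, with its seed, bases 2 to 8, in capitals.
hsa-miR-21-5p, chr17:59841273-59841294, plus strand: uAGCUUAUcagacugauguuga
VMP1-216 had 3565 counts with GST, 2551 with wild type and 2771 with the mutant, and the spliced VMP1 mRNA 1517, 6836 and 638. The log2 level ratio of the member was -0.57 (-0.64 to -0.49) for wild type over GST and -0.22 (-0.29 to -0.15) for mutant over GST. The spliced mRNA varied more, being highest with wild type and lowest with the mutant. The ratio differed by -2.65 (-2.76 to -2.55) for wild type over GST and 0.89 (0.73 to 1.04) for mutant over GST. Small RNA genes lay inside 51 members. Of the 45 that could be set against spliced mRNA, 13 (28.9%) were higher with wild type and 9 (20%) lower, near the 31.6% and 24.9% of all non-protein-coding transcripts. RPL17-214, which contains SNORD58C, was higher relative to the spliced mRNA by 2.36 (2.28 to 2.44). NELFA-213, which contains MIR943, was higher by 2.10 (1.07 to 3.47). UCK2-208, with MIR3658, was higher by 2.28 (1.63 to 3.05), with 1610, 1625 and 1562 counts of its own, and its value was -2.74 with all other transcripts of the gene as the reference. The libraries do not tell a processed small RNA from its host transcript.

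Of the 10 members with the highest mean count, 6 came from genes of ribosomal proteins or an elongation factor. NPM1-212 (chr5:171407493-171410884, plus strand), of the gene for the nucleolar protein nucleophosmin, had 29996, 152971 and 28981 counts for GST, wild type and mutant. The spliced NPM1 mRNA was highest with wild type too, at 28756, 60889 and 14985, and the ratio differed by 1.27 (1.24 to 1.30). VDAC2-207, of a gene for a channel of the outer mitochondrial membrane, had 3167, 24835 and 3581 counts against 3863, 19310 and 2605. Its ratio differed by 0.65 (0.58 to 0.72), since member and spliced mRNA were both highest with wild type.

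EEF1A1-207, of the gene for the elongation factor that brings tRNA to the ribosome, had 60562, 29556 and 27471 counts against 36363, 14430 and 86027. Here the mutant differed, with a difference of the ratio of -2.38 (-2.41 to -2.36) against GST, and wild type by 0.30 (0.26 to 0.33). RPL17-214 had 16300, 12839 and 13032 counts against 11416, 1757 and 13120, so that the spliced mRNA was lowest with wild type. RPL4-203, of a ribosomal protein gene, had 43252, 5386 and 37302 counts against 10073, 1412 and 5876, member and mRNA being low together, with a difference of -0.17 (-0.26 to -0.08). RPS23-203 was highest with wild type, at 9899, 22916 and 11996 counts, as was its spliced mRNA at 15226, 24442 and 14742. RPL14-208, ALDOA-214 and RPS18-237 were higher relative to the spliced mRNA by 1.28, 1.33 and 1.07, and TPT1-213 by 0.81. Of these 10 members, NPM1-212, RPL17-214 and VDAC2-207 had at least 20% sequence of their own. RPS18-237 had none, and RPL14-208, RPL4-203 and ALDOA-214 had under 5%.

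At the extremes of the ranking, members had counts in some libraries and none or few in others. TGM2-205, of the gene for transglutaminase, had no count with GST, 565 with wild type and 10.4 with the mutant, beside 3554, 222 and 3185 for the spliced mRNA. With a floor of 3 counts per library in place of 0, its ratio was 3015-fold higher with wild type than with GST. The lower bound of its interval was log2 11.23. ACTN1-211, of an actinin gene, rounded to 0 with GST and the mutant and had 1371 counts with wild type. With that floor it was 625-fold higher than with GST relative to the mRNA. EIF5B-202, of an initiation factor gene, had 5.23, 1378 and 587 counts, a log2 difference of 10.31 (9.21 to 12.03) with wild type and 8.79 (7.69 to 10.51) with the mutant. EEF1B2-211, which contains SNORA41, had 10.3, 760 and 0 counts. ADIPOR1-205, of an adiponectin receptor gene, had 43.9 and 15235 counts with GST and wild type and rounded to 0 with the mutant, but the protein-coding transcripts had 103, 0 and 0. Wild-type reads of that gene were given to the member and none to the protein-coding transcripts.

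Among the lowest, several members were at or near 0 with wild type alone. HSPA4-203, of a chaperone gene, had 631, 0 and 399 counts beside 1192, 1205 and 1099 for the mRNA. With a floor of 3 counts in place of 0, it was 213-fold lower relative to the mRNA than with GST. VAPA-206, of a gene for a membrane contact protein, had 201, 0 and 186 counts, 184-fold lower with the same floor. SON-215 had 536, 2.86 and 103 counts, a log2 difference of -7.81 (-10.35 to -6.47). Other members differed between the mutant and GST. FBRS-206, of a fibrosin gene, had 391 and 816 counts with GST and wild type and rounded to 0 with the mutant, and MBNL1-222, of a splicing regulator gene, had 2540, 13083 and 41.5 in the order GST, wild type, mutant. CD44-225, of the gene for a hyaluronan receptor, had 0, 0 and 136 counts, TMEM106C-211 had 0, 188 and 502, and OLA1-209 481, 2.21 and 0. With 1 library per protein, such values cannot be told apart from a division of reads that fell differently in 1 library.

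Among 45 genes known to be bound by ZFP36 proteins, 3 had a member. VEGFA-215, of the gene for the angiogenic growth factor, had 30.4, 576 and 249 counts with GST, wild type and mutant, against 363, 242 and 87.3 for the spliced mRNA. The ratio was higher with both fusions, by 4.82 (4.26 to 5.48) and 5.09 (4.44 to 5.80). HIF1A-209, of the hypoxia factor gene, had 0, 3.13 and 38.2 counts. CCNB1-207, of the gene for mitotic cyclin B, had 252, 1.68 and 424 counts, a difference of -7.22 (-10.64 to -5.67) with wild type, while the spliced mRNA, at 2821, 4173 and 2051, was highest there. Of the 3, 1 was higher and 1 lower with wild type over GST, where 31.6% and 24.9% of all non-protein-coding transcripts were. All 3 were higher with the mutant, against 26.1%, a count too small to set against that share. The median share of own 31-base words over the 3 was 13.8%, with CCNB1-207 at 40.9%.

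For gene groups by role, the shares over all non-protein-coding transcripts, 31.6% higher and 24.9% lower between wild type and GST, and 26.1% and 19% between mutant and GST, are the background, and the counts of small groups are descriptions. Of 27 members from genes of spliceosome components, 14 were higher relative to the spliced mRNA with wild type and 4 lower, with a median log2 difference of 1.37 beside 0.26 for all non-protein-coding transcripts. Between mutant and GST 7 were higher and 4 lower. Between wild type and mutant 11 were higher and 4 lower, with a median of 0.19 beside 0.02 for all non-protein-coding transcripts. The spliced mRNAs had a median level of -2.58 between wild type and GST. The 27 members lay in 17 genes, so some share 1 protein-coding sum. SNRPF-202, of a gene for a core snRNP protein, had 4077, 8069 and 750 counts against 6027, 3023 and 6106, a difference of 1.98 (1.90 to 2.06). RBM25-206 differed by 0.49 (0.16 to 0.83). Of 25 members from genes of DEAD/DEAH-box helicases, which remodel RNA, 12 were higher and 3 lower, with a median of 1.22, and 5 and 2 between mutant and GST. Between wild type and mutant 11 were higher and 7 lower, with a median of 0.53. Here the spliced mRNAs had a median level of -3.53 between wild type and GST. All 27 helicase members, with or without a ratio, lay in 18 genes. EIF4A3-202 and EIF4A3-208, of the gene for a core protein of the exon junction complex, had 161, 2224 and 122, and 993, 359 and 1038 counts. Their ratios to the spliced mRNA differed by 7.18 (6.70 to 7.70) and 1.93 (1.48 to 2.42), since that mRNA had 530, 49.6 and 516. With all other transcripts as the reference, the value of EIF4A3-208 was -3.16 for wild type over GST and -3.35 for wild type over mutant.

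Of 16 members from genes of SR proteins and CLK kinases, which set splice sites, 5 were higher and 3 lower, with a median of -0.05. SRSF2 is known to regulate itself through splicing of its own 3' end. SRSF2-209 had 204, 15585 and 233 counts, SRSF2-210 1994, 17268 and 3790, and SRSF2-206 5243, 6328 and 2896, beside 367, 758 and 74.6 for the protein-coding transcripts. None of these 3 had sequence of its own. Their ratios differed by 5.21 (4.94 to 5.48), 2.07 (1.87 to 2.26) and -0.77 (-0.97 to -0.59) with wild type over GST. SON-217, of a nuclear speckle gene, had 221, 1787 and 181 counts, a difference of 2.47 (2.25 to 2.69), where SON-215 above went the other way. Of 14 members from hnRNP genes, 4 were higher and 5 lower, with a median of 0.06. HNRNPC-206 had 18547, 1491 and 7022 counts, a difference of -2.22 (-2.31 to -2.14). HNRNPU-203 had 196, 468 and 157, a difference of 2.47 (2.22 to 2.73). HNRNPA3-205, with no sequence of its own, had 1684, 0 and 1392, 883-fold lower with wild type at a floor of 3 counts in place of 0. HNRNPA1-212 had 0, 2.75 and 248 counts. Of 16 members from genes with introns known to be detained in the nucleus, 5 were higher and 5 lower, with a median of 0.03. RBM39-235 differed by 1.37 (0.86 to 1.89), RBM39-221 by -0.11 (-0.50 to 0.28) and EIF4A2-219 by -1.30 (-1.75 to -0.83).

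Of 111 members from genes of cytosolic ribosomal proteins, 33 were higher relative to the spliced mRNA with wild type and 17 lower, and the median of 0.32 lay close to that of all non-protein-coding transcripts. Both sides of the ratio were low with wild type, with median levels of -1.77 for these members and -2.53 for their mRNAs against GST. Members of translation factor genes, 34 in number, had 13 higher and 8 lower with a median of 0.05. EIF4G1-233, of the scaffold of the cap-binding complex, had 8420, 8766 and 11815 counts and differed by -0.34 (-0.51 to -0.17). EIF3L-213 and EIF3L-209 differed by -1.60 (-1.87 to -1.34) and -0.43 (-0.68 to -0.19). Of 20 members from genes of aminoacyl-tRNA synthetases, which charge tRNA, 5 were higher and 5 lower with wild type, and 9 and 1 with the mutant. As levels, 19 of 22 such members were lower with wild type than with GST and 0 higher, where 42.9% of all transcripts and 48.5% of all members were lower. CARS-210 differed by 2.64 (1.88 to 3.58) and GARS-209 by 1.33 (0.81 to 1.93). TARS-205, with 5858, 11656 and 4828 counts, differed by 0.26 (0.05 to 0.46).

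Among other groups, 6 of 12 members from genes of glycolytic enzymes were higher with wild type and 2 lower, with a median of 0.69. LDHB-206, of a lactate dehydrogenase gene, differed by 2.62 (2.44 to 2.81) and ALDOA-208, of aldolase, by 2.87 (2.51 to 3.23). GPI-204, of the isomerase that follows hexokinase, had 2430, 97.2 and 2884 counts, and differed by -1.40 (-1.76 to -1.06). Chaperone genes had 15 members, of which 6 were higher and 6 lower. CCT8-210 differed by 1.15 (1.03 to 1.27), CCT6A-204 by -0.58 (-0.65 to -0.50) and HSP90B1-209, of the chaperone of the endoplasmic reticulum, by -3.44 (-4.76 to -2.52). Of 16 members from genes of actins, tubulins, keratins and other filaments, 3 were higher and 6 lower, with a median of -1.09. ACTG1-207, of cytoplasmic actin, had 9470, 0 and 18698 counts beside 79255, 80956 and 54953 for the mRNA, with 2.55% sequence of its own. Its ratio was 3224-fold lower with wild type at a floor of 3 counts in place of 0. TPM2-205 differed by -2.55 (-3.77 to -1.69), and TUBA1C-203 had 0, 0 and 675 counts. Of 40 members from ZNF genes 16 were higher and 14 lower, with a median of 0.17, such as ZNF493-209 at 1.79 (1.04 to 2.55) and ZNF512-206 at -1.45 (-1.77 to -1.13).

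Of 478 genes with several members and enough protein-coding counts, all members were higher with wild type than with GST relative to the spliced mRNA in 65, all lower in 37, and at least 1 was higher and 1 lower in 58. In the other 318 at least 1 member had no call and none were called in opposite directions. No such count was made for genes with several transcripts of other classes, so these numbers are a description. Higher with wild type than with both GST and the mutant were 660 members (25.1%), and lower than with both 428 (16.3%), near the 22.4% and 18.3% of all non-protein-coding transcripts. These comparisons share the wild-type library.

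The 624 members with a site had a median log2 level of 0.41 between wild type and GST, and the 2397 without one -1.58. Their spliced mRNAs went the same way, with medians of -0.14 and -2.32. Relative to the spliced mRNA values differed by the place of the site. In 212 members the site was in the member and not in the main protein-coding transcript. Their ratio had a median difference of 1.20, with 105 (49.5%) higher and 36 (17.0%) lower, against 31.6% and 24.9% of all non-protein-coding transcripts. In 275 it was only in the protein-coding transcript, with a median of -0.56, 60 (21.8%) higher and 108 (39.3%) lower. With a site in both (296 members) the median was 0.34, with 36.5% higher and 23.6% lower. With none (1843 members) it was 0.49, with 33.3% higher and 20.2% lower. Between mutant and GST the medians were -0.14, 0.50, 0.15 and 0.08 for site in the member only, in the mRNA only, in both and in neither, an order that runs the other way.

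**Figure D4:**
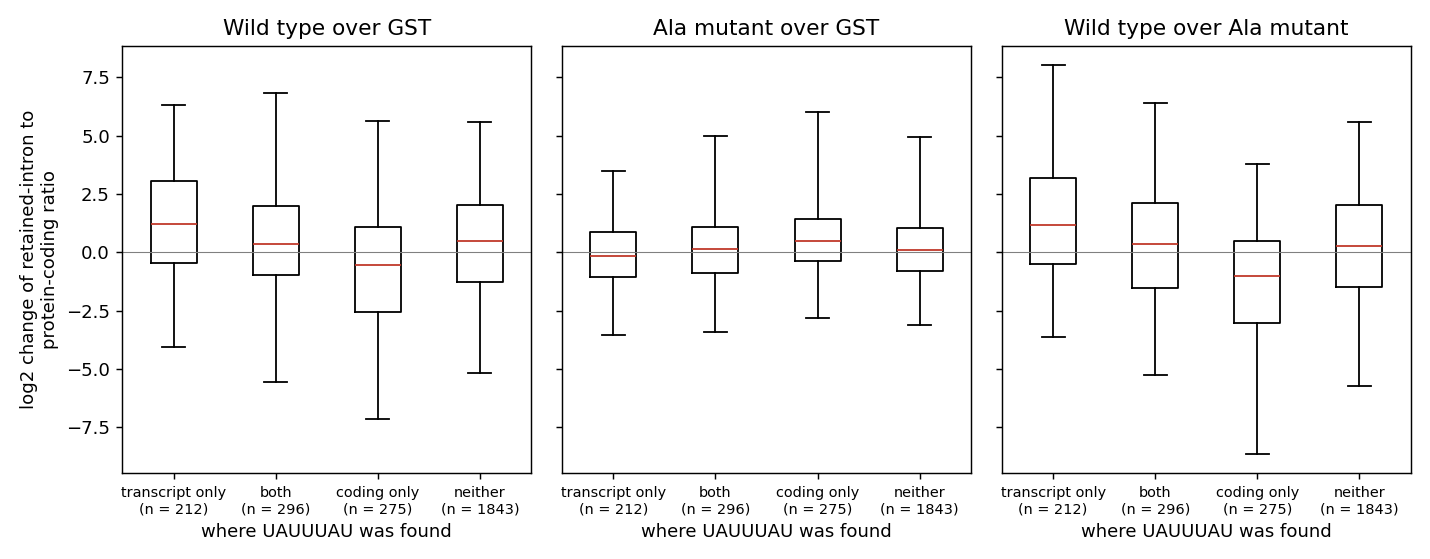
Log2 difference of the ratio of member to protein-coding transcripts (vertical axis) by where UAUUUAU was found, in 3 comparisons; boxes run from the lower to the upper quartile of the members, red lines are medians and whiskers run from the 5th to the 95th percentile. Between wild type and GST the median is 1.20 with the site in the retained-intron transcript only and -0.56 with the site in the main protein-coding transcript only.

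Base composition moved with these values, and its part in them was not tested. From the lowest to the highest quartile group of GC content, members had median log2 levels between wild type and GST of 0.64, -0.32, -1.78 and -2.93. Members with a site had a median GC content of 42.3%, and those without one 52.8%. For the ratio within genes, the GC content of the member minus that of the main protein-coding transcript was the matching measure. From its lowest to its highest quartile group the median difference was 1.14, 0.59, 0.17 and -0.19 between wild type and GST, and -0.32, 0.09, 0.15 and 0.56 between mutant and GST. Among members on the upper side of the median GC difference, the median was 1.23 for the 57 with a site in the member only and -0.74 for the 153 with a site in the mRNA only. On the lower side it was 1.14 for 155 members and -0.45 for 122. With no site in either, the median was 0.07 for 980 members on the upper side and 0.96 for 863 on the lower side. On both sides the site in the member only stood above the site in the mRNA only, and the values without a site moved with the GC difference. Against no site, the site in the member only stood at 1.14 beside 0.96 on the lower side and 1.23 beside 0.07 on the upper. Whether the site has a part in these values apart from base composition was not tested. Among the 394 members with solid counts, the medians were 0.49 for 28 members with the site only in the member and -0.10 for 58 with it only in the mRNA, and 0.59 for 247 with neither. In these members the site in the member only was not above no site. On the upper side of the GC difference the medians were 0.01 for 7 with the site only in the member and -0.15 for 24 with it only in the mRNA. With neither, the median there was 0.21 for 117. On the lower side the medians were 0.88 for 21, -0.09 for 34 and 0.94 for 130 in the same order. Length moved with the ratio too, with medians of 0.14, 0.06, 0.63 and 0.80 from the shortest to the longest quartile group of members.

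**Figure D5:**
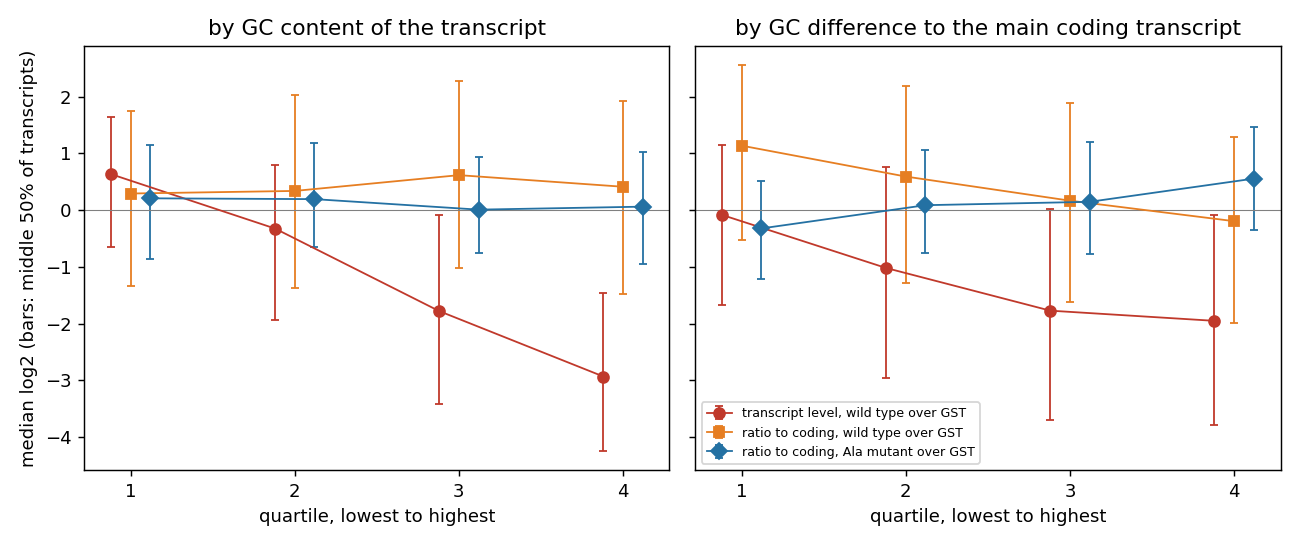
Median log2 values (points) and the quartiles of the members (bars) by quartile group of the GC content of the member (left) and of its GC content minus that of the main protein-coding transcript (right). The level in wild type over GST goes from 0.64 in the lowest to -2.93 in the highest quartile group of GC content, while the ratio to coding transcripts changes with the GC difference, from 1.14 to -0.19.

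The members printed above with an intronic UAUUUAU lay on both sides of no difference, and others with such a site lay further out, among them TGM2-205 and SON-215. SPTBN1-204, of a spectrin gene, had 609, 2772 and 623 counts with GST, wild type and mutant, against 273, 136 and 171 for the spliced mRNA, a difference of 3.19 (2.86 to 3.53). ATP2A2-202, of the calcium pump gene of the endoplasmic reticulum, had 1393, 5496 and 924 counts against 2677, 2648 and 944, a difference of 1.996 (1.88 to 2.11). TUBGCP4-207, of a gene for microtubule nucleation, had 270, 632 and 254.9 counts, a difference of 0.88 (0.64 to 1.12). CLTC-209, of the clathrin heavy chain gene, had 4421, 7541 and 3332 counts, but its mRNA had 542, 1800 and 341, so that the ratio differed by -0.96 (-1.11 to -0.81). HBS1L-210, of a ribosome rescue gene, differed by -1.80 (-1.97 to -1.63), and its main mRNA held 4 sites. ITGA3-208, of an integrin gene, had 5157, 1436 and 6456 counts and differed by -0.05 (-0.18 to 0.08), and GPI-204, given above, was lower. Over all 170 members with an intronic site and none in the main mRNA, the median was 1.02, with 82 (48.2%) higher and 32 (18.8%) lower. Another 1793 members with at least 31 intronic bases had no site in these or in the main mRNA. Their median was 0.55, with 34.0% higher and 19.5% lower. With members without a ratio included, the groups had median GC contents of 43.0% and 53.9%, whose part was not tested. With solid counts, the site in the member only was not above no site, as given above.

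Members with a whole intron had a median difference of 0.48 between wild type and GST and those with part of an intron 0.41, beside 0.09 for the 126 with fewer than 31 intronic bases. Members that kept the last intron of the main mRNA had a median of 0.75, those with an internal one 0.49 and those with the first 0.36. Between wild type and mutant these medians were 0.83, 0.32 and -0.35, and between mutant and GST -0.20, 0.06 and 0.34, over 184, 561 and 79 members. CSNK2B-206, of the gene for the regulatory subunit of casein kinase 2, had 518, 364 and 507 counts beside 6210, 1006 and 9284 for the mRNA, a difference of 2.12 (1.90 to 2.34). SELENOH-205, of a gene for a nuclear selenoprotein, had 210, 226 and 220 beside 499, 119 and 973, a difference of 2.17 (1.76 to 2.58). In both, the spliced mRNA was lowest with wild type and differed more between libraries than the member. CSNK2B-206 was lowest with wild type too, at 364 counts, while SELENOH-205 had like counts in the 3 libraries.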

How the data were processed

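Estimated counts per transcript were deposited by the authors in 1 table for each of 3 libraries. The tools named in the submitters' processing notes are kallisto and DESeq2, and the build is hg19. No version or annotation is given in the sources used here. Per the file headers, the tables also hold TPM, which the authors' software scales to a fixed total. Length columns, in bases, are also present per the file headers. Identifiers without version were joined to GENCODE 29 (GRCh38), which matched 181857 of 196354 (92.62%), and 2937 members (97.2%) had the deposited length. Coordinates and sequences are those of GRCh38, with transcript sequences from GENCODE and the microRNA from RefSeq.

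Libraries were scaled with TMM (edgeR 4.0.16, R 4.3.3) on 14056 gene sums. A level ratio is the log2 ratio of scaled counts with a prior of 0.5 and an exact Clopper-Pearson interval. The ratio to spliced mRNA is the odds ratio of rounded counts of member and protein-coding sum in 2 libraries, given as log2 with an exact conditional interval. It is free of scaling. A call needed a 2-fold difference and an interval that excluded 1. No test across libraries was possible. The interval code was tested on simulated data.

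Named members followed a rule: the 8 highest and 8 lowest ratios for each comparison with wild type and 4 each for mutant over GST, 1 per gene and with at least 20% own 31-mers, the 10 with the highest mean count, and up to 6 of each of 13 gene lists. Of these, examples are given. The members, lists and rules were chosen with earlier results of these data known. Alternatives were scaling by totals, by totals less the most abundant genes or by size factors of DESeq2 1.42.0, deposited TPM with a pseudocount of 0.5, other minimum counts, other references within the gene, members of a gene summed, and members with at least 20% own 31-mers.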

Additional observations from a re-analysis of the deposited data

How the results depend on the processing

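With a minimum mean of 100 counts in place of 10, 251 members were higher and 572 lower in level between wild type and GST, 191 and 67 between mutant and GST, and 253 and 583 between wild type and mutant. Level was tested for 1103 members at this minimum. Relative to the spliced mRNA, 400 of 969 tested members (41.3%) were higher and 178 (18.4%) lower between wild type and GST. Between mutant and GST these numbers were 207 (21.4%) and 156 (16.1%), and between wild type and mutant 379 (39.1%) and 197 (20.3%). With no minimum they were 1368 and 698 for level between mutant and GST and 803 and 2541 between wild type and mutant, and 1427 and 920, 1145 and 923, and 1336 and 1126 relative to the spliced mRNA. The 1372 members with at least 20% own 31-mers gave 513 (37.4%) and 291 (21.2%), 315 (23.0%) and 258 (18.8%), and 489 (35.6%) and 334 (24.3%). Members with at least 50 counts in every library, a choice made after seeing the data, gave 135 and 58, 58 and 47, and 134 and 72. These settings test fewer or more members by construction. Shares of all non-protein-coding transcripts were set beside them only for at least 50 counts in every library, as given above. With deposited TPM and a pseudocount of 0.5, 389 members were higher in level between mutant and GST, and the cause was not tested. With all other transcripts of the gene as the reference, the median change between wild type and mutant was -0.0011, of the opposite sign.

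Of 1590 values of named members under the alternatives, 1484 kept their call or lack of one, 64 passed the call and 31 lost it. Another 10, given next, had the opposite sign, and 1 was classed as moved. Whether values without a call changed sign is not given. With all other transcripts as the reference, EIF4A3-208 stood at -3.16 and -3.35 for wild type over GST and over mutant, UCK2-208 at -2.74 and -2.47, and MBOAT7-212 at 0.0517 and 0.51. Under that reference SRSF2-210 stood at 0.39 for wild type over mutant, and for mutant over GST EIF4A2-219 stood at -0.43 and SRSF2-206 at -1.56. With TPM, CLTC-209 stood at 0.44 for wild type over mutant. The cause was not tested.

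No paired analysis was possible because each protein has 1 library. Leaving out a library would leave its protein with no value. Counts limit what can be said of members near 10 counts, and for the 493 members without sequence of their own the values rest on how shared reads were divided.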

Other observations

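Members in genes without a protein-coding transcript have no spliced mRNA to be set against, so their levels stand alone. GAS5, the host of a set of small nucleolar RNAs, had 8 members that did not go one way. GAS5-207 had 271, 1467 and 247 counts with GST, wild type and mutant, a log2 level ratio of 2.35 (2.17 to 2.55) between wild type and GST. GAS5-201 had 373, 92.4 and 126, a ratio of -2.10 (-2.45 to -1.77). DANCR-202, of a long non-coding RNA gene that hosts a small nucleolar RNA, had 2080, 3250 and 2297 counts, a ratio of 0.56 (0.48 to 0.64). SNHG12-205, of another host gene, had 271, 112 and 264 counts, a ratio of -1.35 (-1.69 to -1.03). MAGI2-AS3-212, antisense to MAGI2, had 244, 788 and 165 counts, a ratio of 1.61 (1.40 to 1.82). Whether the counting used strand is not given in the sources used here, so reads of an antisense gene and its partner cannot be told apart.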
